A study of Mus musculus with 6 samples.

Results

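The constitutive proteasome is the protein-degrading machine that every mouse cell carries, and its subunits are encoded by the Psma, Psmb, Psmc and Psmd genes. The members described here are the genes of these families whose symbols end in a number, without the immunoproteasome genes Psmb8, Psmb9 and Psmb10. They came to 36 of the 33308 genes in the deposited table, 16 of the 20S core and 20 of the 19S cap. RNA-seq was carried out on 6 mouse skin samples, 3 from mice given osimertinib for 42 days and 3 from untreated control mice. Osimertinib inhibits the epidermal growth factor receptor, and the series names skin problems under this drug as its subject. The labels give no strain, age, sex, dose or body site, and nothing in them ties the samples of a group to separate animals. Library totals ran from 59877553 to 60719064 counts in osimertinib skin and from 54112624 to 57174797 counts in control skin. The tested members had between 911 and 18773 counts in each library.

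The 20S core is a barrel of stacked rings. The outer rings are built of alpha subunits, which form the gate, and the inner rings of beta subunits, of which Psmb5, Psmb6 and Psmb7 carry the chymotrypsin-like, caspase-like and trypsin-like cutting sites. The 19S cap sits on the barrel, recognises proteins tagged with ubiquitin, removes the tag and unfolds them with a ring of ATPases (the Psmc genes). The Psmd genes encode its scaffold, lid and ubiquitin receptors and 3 assembly chaperones, Psmd5, Psmd9 and Psmd10, that are not part of the finished particle. Cells whose proteasome is inhibited raise its subunit genes together, mainly through the transcription factor Nfe2l1. Under interferon, newly made particles take up the immunoproteasome counterparts of the 3 cutting subunits instead.

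The differences between the groups in proteasome transcripts were small, and no subunit passed the test. In the quasi-likelihood test of edgeR, 0 of the 34 tested members had an adjusted p below 0.05, against 0.0% of all 13498 genes tested. The lowest adjusted p among the members was 0.291 with edgeR and 0.0723 with DESeq2, both for Psma7. The log2 fold changes of osimertinib over control were small and mostly of 1 sign. They were above 0 for 32 of 34 members, against 45.3% of all genes tested. Their median was 0.28, within a range from -0.01 to 0.54, and the median over all genes tested was -0.05. The median was 0.33 over 14 subunits of the 20S core and 0.22 over 20 genes of the 19S cap. These medians depended on single control libraries: without control 2 both were 0.49, and without control 3 they were 0.25 for the 20S core and 0.10 for the 19S cap. An unadjusted p below 0.05 in edgeR was reached by 4 members, Psma7, Psma5, Psmb3 and Psmc4, all with positive fold changes, where 7.22% of all genes reached it in that direction. None of the members reached it with a negative fold change, where 6.73% of genes did. DESeq2 gave an unadjusted p below 0.05 to 5 members, the same 4 and Psmb4, against 8.7% of genes with a positive fold change. Its adjusted p was below 0.05 for 0 members, against 3.41% of genes higher and 2.95% lower.

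**Figure D1:**
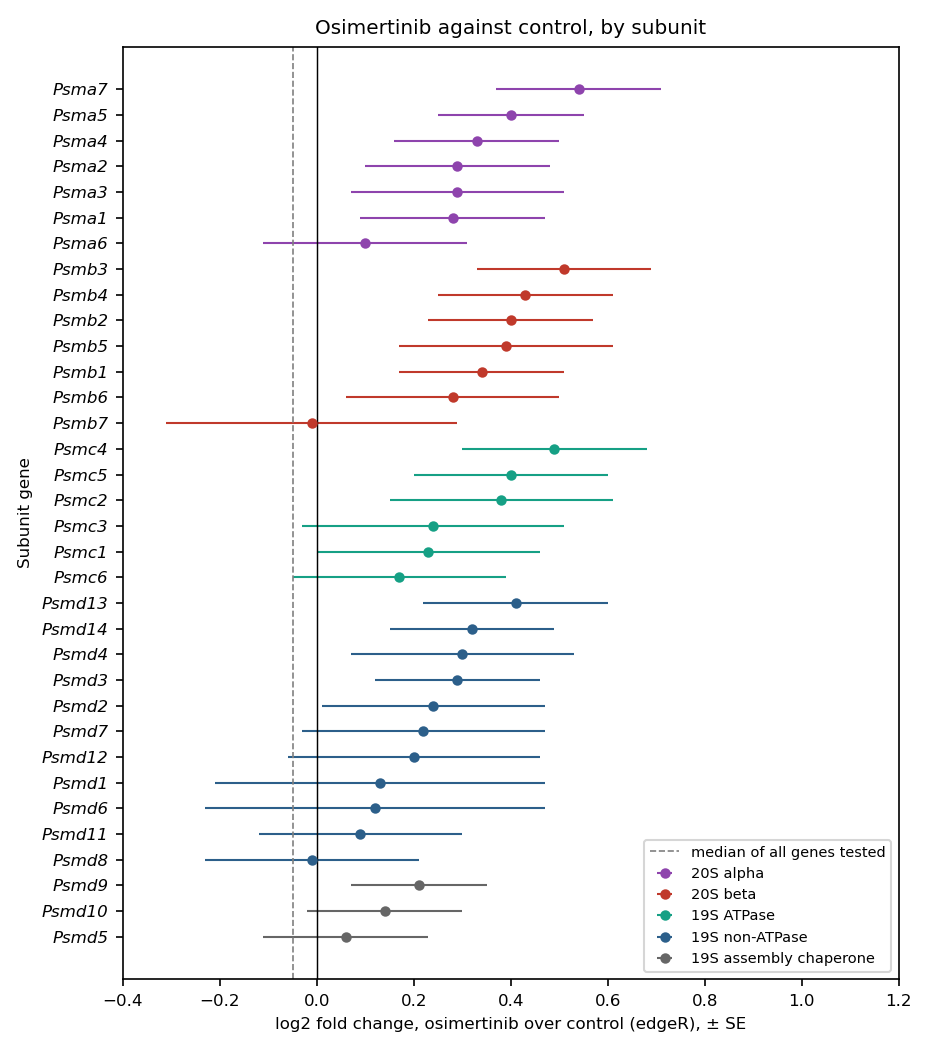
Log2 fold changes of osimertinib over control with their standard errors (edgeR, 3 libraries per group), for the 34 tested members grouped by role. The points run from -0.01 to 0.54, and 32 of 34 lie above 0.

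Both groups held transcripts of every tested member, at levels that differed widely between subunits. FPKM are fragments scaled by library total and by the gene lengths the submitters used, and the annotation behind those lengths is not given. In FPKM the tested members spanned a 54.1-fold range of mean levels over the 6 libraries. The highest means were those of Psmb5 with 160 FPKM, the 19S ATPase Psmc5 with 130 FPKM and the alpha subunit Psma6 with 90.0 FPKM. The lowest were those of the assembly chaperones Psmd5 with 2.95 FPKM and Psmd9 with 3.79 FPKM, below the lid subunit Psmd11 with 9.23 FPKM and the chaperone Psmd10 with 10.9 FPKM. This order rests on the lengths used. In CPM (counts scaled to library size, with no length) the mean in osimertinib skin was 34.2 for Psmd9 and 19.6 for Psmd10. The median of the mean levels was 45.3 FPKM in the 20S core and 28.0 FPKM in the 19S cap. The order of the members was nearly the same in every library, with Spearman's rho between 0.956 and 0.993 over the 15 pairs of libraries. This is a description over genes, which are not independent of each other.

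The 2 members that were not tested are known as tissue-restricted forms. Psma8 is the alpha subunit of the testis proteasome, and Psmb11 is the catalytic subunit of the thymus proteasome. Psma8 had 11, 17 and 19 counts in osimertinib skin, against 0, 0 and 10 counts in control skin. Psmb11 had 0, 0 and 10 counts in osimertinib skin and 0 counts in each control library. A count of 0 allows up to 3 counts, a level of 0.0494 to 0.0554 CPM (counts scaled to library size), and this limit covers counting error only. Both genes lay under the minimum mean level of 1 FPKM for testing. Psma8, the nearest member below it, had a mean of 0.0531 FPKM, and Psmd5, the nearest above it, one of 2.95 FPKM.

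**Figure D2:**
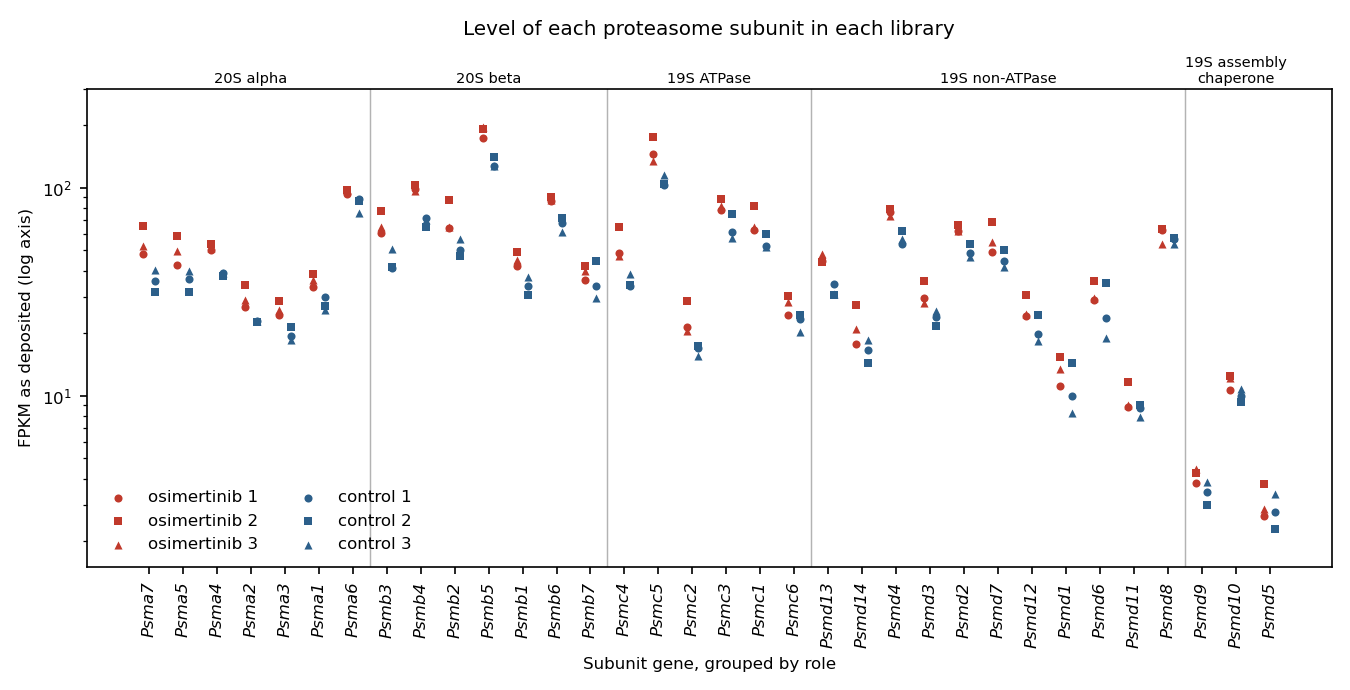
FPKM on a log axis of the tested members in each of the 3 osimertinib and 3 control libraries, grouped by role. Psmb5 and Psmc5 lie at the top and the chaperones Psmd5 and Psmd9 at the bottom, and the points of both groups lie close together for each gene.

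Promoters are shown for 6 members, chosen as the 20S and 19S subunits with the smallest p, the catalytic subunits with an entry, and the 19S non-ATPase with the highest mean FPKM. The 250 bases before the annotated start were read from RefSeq (GRCm38.p6), on the strand of the gene, and 29 of the 36 members matched an entry. Capitals mark matches, on either strand, to 4 motifs: TGACNNNGC, the core of the antioxidant-type element that Nfe2l1 can bind; CCAAT, the box of the factor NF-Y; GGGCGG, the GC box of Sp factors; and CCGGAAG, the ETS core. Neighbouring GC boxes can overlap and then share a run of capitals. Psma7 lies at chr2:180042465-180042714 on the minus strand, Psmb3 at chr11:97703184-97703433 on the plus strand, and Psmb5 at chr14:54617996-54618245 on the minus strand. Psmb6 lies at chr11:70525107-70525356 on the plus strand, Psmc4 at chr7:28050093-28050342 on the minus strand and Psmd4 at chr3:95042615-95042864 on the minus strand.
Psma7: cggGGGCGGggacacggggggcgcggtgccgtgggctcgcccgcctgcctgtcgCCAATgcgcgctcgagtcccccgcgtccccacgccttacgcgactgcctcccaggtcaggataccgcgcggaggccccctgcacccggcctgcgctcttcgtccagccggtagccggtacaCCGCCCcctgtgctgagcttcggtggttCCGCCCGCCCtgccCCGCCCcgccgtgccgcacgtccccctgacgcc
Psmb3: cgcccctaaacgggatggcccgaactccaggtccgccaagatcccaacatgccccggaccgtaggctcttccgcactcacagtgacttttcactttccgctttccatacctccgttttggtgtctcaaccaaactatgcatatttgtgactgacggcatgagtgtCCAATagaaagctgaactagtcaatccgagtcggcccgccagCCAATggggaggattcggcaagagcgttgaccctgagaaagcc
Psmb5: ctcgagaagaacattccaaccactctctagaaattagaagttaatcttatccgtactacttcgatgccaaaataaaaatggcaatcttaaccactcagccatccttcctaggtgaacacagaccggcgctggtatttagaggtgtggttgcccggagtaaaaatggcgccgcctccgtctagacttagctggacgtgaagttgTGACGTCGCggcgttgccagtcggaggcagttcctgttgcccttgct
Psmb6: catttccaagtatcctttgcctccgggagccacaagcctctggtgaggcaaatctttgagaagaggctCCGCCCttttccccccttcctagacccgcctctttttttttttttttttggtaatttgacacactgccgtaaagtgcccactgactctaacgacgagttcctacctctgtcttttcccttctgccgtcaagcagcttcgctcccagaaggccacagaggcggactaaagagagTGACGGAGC
Psmc4: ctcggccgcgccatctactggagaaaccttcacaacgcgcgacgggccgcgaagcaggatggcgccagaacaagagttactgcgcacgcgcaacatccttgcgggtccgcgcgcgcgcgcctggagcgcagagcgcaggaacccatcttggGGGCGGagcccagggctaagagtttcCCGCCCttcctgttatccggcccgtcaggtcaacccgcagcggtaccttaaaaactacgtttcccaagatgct
Psmd4: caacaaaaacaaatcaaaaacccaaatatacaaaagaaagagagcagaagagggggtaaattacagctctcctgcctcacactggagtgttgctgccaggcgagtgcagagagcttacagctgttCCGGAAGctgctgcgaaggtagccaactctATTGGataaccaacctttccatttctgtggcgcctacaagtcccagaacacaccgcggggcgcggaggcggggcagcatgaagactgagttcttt

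Motif matches were counted over all promoters and by core and cap. CCGGAAG stood in 8 of the 29 promoters, 27.6%, against 13.0% of the 12247 promoters of tested genes and 6.91% of all 32851 promoters of this length. All 8 belonged to 19S genes, 47.1% of the 17 with an entry, and 0 to the 12 of the 20S core. CCAAT stood in 58.3% of 20S and 29.4% of 19S promoters, and GGGCGG in 41.7% and 70.6%. Over both parts CCAAT was found in 41.4% of member promoters, against 34.6% for tested genes, and GGGCGG in 58.6%, against 56.9%. TGACNNNGC was found in 5 promoters, 17.2%, against 11.7% for tested genes. A further motif, the E-box CACGTG, was found in 2 promoters, 6.9%, against 8.28%. In the printed set TGACNNNGC is present in Psmb5 and Psmb6. These are matches of letters, not measured binding sites.

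Among the alpha subunits of the 20S core, all 7 tested genes had fold changes above 0, with a median log2 fold change of 0.29 and a range from 0.10 to 0.54. Psma7, an outer-ring subunit, had 174, 217 and 183 CPM, scaled with TMM factors, in osimertinib skin, against 126, 141 and 128 CPM in control skin. Each osimertinib library lay above each control library. Its log2 fold change was 0.54 ± 0.17 (SE, n = 3 per group), with an adjusted p of 0.291 in edgeR. Psma5, another gate subunit, had 66.8, 83.1 and 74.9 CPM in osimertinib skin, against 54.9, 60.8 and 54.8 CPM in control skin. Its groups did not overlap either, and the log2 fold change was 0.40 ± 0.15 (adjusted p 0.333, edgeR). Psma6, the most abundant alpha subunit per length, had 136, 130 and 138 CPM in osimertinib skin, against 125, 155 and 97.8 CPM in control skin. Here the control libraries lay on both sides of the osimertinib libraries, and the log2 fold change was 0.10 ± 0.21. Its sign turned without control 3, with a log2 fold change of -0.06.

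The beta subunits had a median log2 fold change of 0.39, and 6 of 7 were above 0. Psmb3, a beta subunit without a cutting site, had 164, 192 and 169 CPM in osimertinib skin, against 108, 140 and 122 CPM in control skin. Its groups were separate, with a log2 fold change of 0.51 ± 0.18 (adjusted p 0.319, edgeR). Psmb4, also without a cutting site, had 226, 215 and 214 CPM in osimertinib skin, against 160, 185 and 143 CPM in control skin. Its groups were separate too, with a log2 fold change of 0.43 ± 0.18 (adjusted p 0.365, edgeR).

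The log2 fold changes of the 3 cutting subunits ran from -0.01 to 0.39, with standard errors from 0.22 to 0.30. Psmb5, the chymotrypsin-like subunit and the target of proteasome-inhibitor drugs, had 184, 187 and 201 CPM in osimertinib skin, against 132, 183 and 120 CPM in control skin. Control 2 lay just below the lowest osimertinib library, and the log2 fold change was 0.39 ± 0.22 (adjusted p 0.472, edgeR). Psmb6, the caspase-like subunit, had 191, 181 and 185 CPM in osimertinib skin, against 146, 194 and 120 CPM in control skin. The groups overlapped through control 2, and the log2 fold change was 0.28 ± 0.22 (adjusted p 0.639, edgeR). Psmb7, the trypsin-like subunit, had 146, 156 and 155 CPM in osimertinib skin, against 132, 222 and 106 CPM in control skin. Control 2 was the highest library and control 3 the lowest, and the log2 fold change was -0.01 ± 0.30 (adjusted p 0.996, edgeR). Differences between the fold changes of these genes were not tested.

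In the 19S cap, the 6 ATPases had a median log2 fold change of 0.31, and all 6 were above 0, from 0.17 to 0.49. Psmc4, an ATPase of the unfolding ring, had 125, 150 and 116 CPM in osimertinib skin, against 84.0, 107 and 87.2 CPM in control skin. Its groups were separate, with a log2 fold change of 0.49 ± 0.19 (adjusted p 0.337, edgeR). Psmc5, the most abundant ATPase per length, had 238, 264 and 214 CPM in osimertinib skin, against 164, 211 and 167 CPM in control skin. Osimertinib 3 and control 2 nearly met, and the log2 fold change was 0.40 ± 0.20 (adjusted p 0.43, edgeR).

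The 11 non-ATPase genes had a median log2 fold change of 0.22, with 10 above 0. Psmd13, a lid subunit, had 178, 161 and 184 CPM in osimertinib skin, against 133, 151 and 109 CPM in control skin. Its groups were separate, with a log2 fold change of 0.41 ± 0.19 (adjusted p 0.404, edgeR). It overlaps the gene Gm15542 on the same strand, whose mean level was 7.74 FPKM beside 38.8 FPKM for Psmd13, and reads of the overlap may have gone to either. Psmd14, the enzyme that cuts the ubiquitin chain off the substrate, had 59.0, 82.9 and 67.1 CPM in osimertinib skin, against 54.1, 59.0 and 54.7 CPM in control skin. Osimertinib 1 and control 2 nearly met in CPM, and in FPKM the groups overlapped, with 17.7 in osimertinib 1 and 18.6 in control 3. The log2 fold change of Psmd14 was 0.32 ± 0.17 (adjusted p 0.465, edgeR). Psmd4, a ubiquitin receptor and the most abundant of this group per length, had 253, 240 and 235 CPM in osimertinib skin, against 172, 252 and 166 CPM in control skin. Control 2 lay among the osimertinib libraries, and the log2 fold change was 0.30 ± 0.23 (adjusted p 0.612, edgeR). Psmd8, another lid subunit, is given because it was the other member with a fold change below 0, a choice made after its values were seen. It had 226, 208 and 187 CPM in osimertinib skin, against 199, 255 and 171 CPM in control skin, with a log2 fold change of -0.01 ± 0.22. Fold changes this near 0 turned sign with the settings. Those of Psmb7 and Psmd8 were positive under upper-quartile scaling, under library totals alone and without control 2. Those of the scaffold subunit Psmd1 and the lid subunits Psmd6 and Psmd11 were 0.13, 0.12 and 0.09, and without control 3 they were -0.12, -0.15 and -0.06. Psmd11 was also negative without osimertinib 2. The 3 assembly chaperones had log2 fold changes from 0.06 to 0.21, with a median of 0.14, and that of Psmd5 was -0.07 without osimertinib 2.

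How many subunits had separate groups depended on how the libraries were scaled. The deposited FPKM are proportional to the count over the library total, within 0.863% for each member, whereas TMM corrects for differences in composition between libraries. In FPKM, every osimertinib library lay above every control library for 13 of 14 tested genes of the 20S core and 10 of 20 of the 19S cap, against 11.5% of all genes tested. These were 7 of 7 alpha subunits, 6 of 7 beta subunits, 6 of 6 ATPases, 4 of 11 non-ATPases and 0 of 3 chaperones. In TMM-scaled CPM the counts were 8 of 14 in the 20S core and 6 of 20 in the 19S cap, against 11.3% of genes tested. On both scales together, 12 tested members were higher without overlap. The share of all genes meeting both was not computed, and it cannot exceed the 11.3% for CPM alone. For 0 members did the osimertinib libraries all lie below the controls, against 4.07% of genes in FPKM and 9.38% in CPM. Among the 9179 tested genes within the members' range of mean FPKM, the shares higher without overlap were 12.1% in FPKM and 11.7% in CPM, and those lower without overlap 3.63% in FPKM and 8.76% in CPM.

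The scales differ most for control 2, whose TMM factor was 0.807, against 0.9807 to 1.123 in the other libraries. Summed over the 20S core, the level was 880.7, 1019 and 936.3 FPKM in osimertinib skin, against 697.8, 698.7 and 695.6 FPKM in control skin. Summed over the 19S cap it was 813.1, 967.8 and 815.5 FPKM in osimertinib skin, against 648.4, 702.0 and 644.3 FPKM in control skin. On the FPKM scale the controls lay close together and the groups were separate for both sums. In TMM-scaled CPM the sum over the 20S core was 2095, 2231 and 2141 in osimertinib skin, against 1618, 2055 and 1479 in control skin. The sum over the 19S cap was 2700, 2915 and 2633 CPM in osimertinib skin, against 2126, 2923 and 1894 CPM in control skin. On that scale control 2 came near the osimertinib libraries for the core and reached them for the cap. The ratio of core to cap in summed FPKM was 1.08, 1.05 and 1.15 in osimertinib skin, against 1.08, 0.995 and 1.08 in control skin, so the ranges overlapped.

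**Figure D3:**
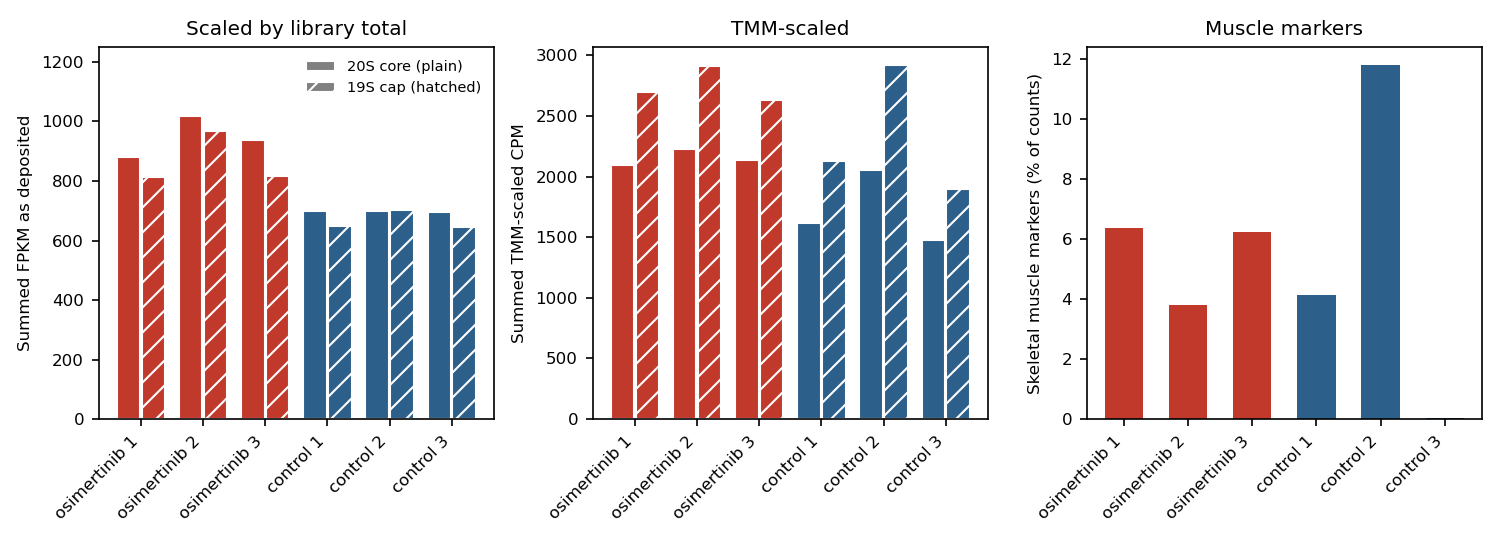
Summed level of the 20S core and of the 19S cap in each library, in deposited FPKM and in TMM-scaled CPM (bars, plain for the core and hatched for the cap), with the muscle marker share of counts in the right panel. In FPKM the osimertinib libraries lie above the 3 controls for both parts, while in CPM control 2 reaches 2923 for the 19S cap, level with the highest osimertinib library at 2915.

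The control libraries also differed in transcripts of skeletal muscle, a tissue that lies under mouse skin. The 12 muscle markers, among them Acta1, Ckm and Mylpf, held 6.36%, 3.81% and 6.24% of the counts in osimertinib skin, against 4.12%, 11.8% and 0.0262% in control skin, and 0 of the 12 genes was at 0 in any library. Control 2 had the highest and control 3 the lowest muscle share. In TMM-scaled CPM control 2 was above the other controls for 33 of 34 members, against 34.8% of genes tested, and control 3 was the lowest library for 25 of 34, against 23.3% of genes. Every osimertinib library was above controls 1 and 3 for 32 of 34 members, against 21.9% of genes. That comparison leaves out control 2, and with all 3 controls it held for 14 of 34 members, against 11.3% of genes. With a muscle score as covariate, the median log2 fold change was 0.27 for the 20S core and 0.11 for the 19S cap, with 12 of 14 and 16 of 20 genes above 0; Psma6, Psmd1, Psmd6 and Psmd11 then turned negative. With control 3 also left out it was 0.34 and 0.23, with 14 of 14 and 19 of 20 above 0. The part of muscle in the fold changes beyond these values was not tested. In bulk tissue, fewer cells of a type and less RNA per cell cannot be told apart.

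Markers of hair and of proliferating cells were higher in osimertinib skin. The 11 hair shaft and matrix markers held 0.101%, 0.461% and 0.0618% of counts in osimertinib skin, against 0.00183%, 0.0165% and 0.00261% in control skin, with 0, 0 and 0 genes at 0 in osimertinib skin and 4, 0 and 2 in control skin. The 7 proliferation markers held 0.0507%, 0.0806% and 0.0627% in osimertinib skin, against 0.0262%, 0.0178% and 0.0504% in control skin, with 0 genes at 0 in any library. Both lists were higher in every osimertinib library than in every control library, though osimertinib 1 and control 3 nearly met for proliferation. Markers of other skin cells were mostly lower, with overlapping shares. The log2 fold change was above 0 for 0 of 6 basal keratinocyte markers (median -0.75), 0 of 6 suprabasal keratinocyte markers (-1.05), 0 of 7 adipocyte markers (-0.83) and 1 of 5 fibroblast markers (-0.63). The basal list held 0.998% to 1.72% of counts in osimertinib skin, against 0.774% to 3.44% in control skin, and the suprabasal list 0.0585% to 0.56%, against 0.309% to 0.888%. The adipocyte list held 0.0939% to 0.215% in osimertinib skin, against 0.0575% to 0.295% in control skin, and the fibroblast list 0.129% to 0.298%, against 0.24% to 0.397%. In these 4 lists 0 genes were at 0 in any library, and macrophage and endothelial markers had medians of -0.05 and 0.01. The part of all these cells in the proteasome values was not tested. Osimertinib 2, with the highest hair and proliferation shares, was the highest of the 6 libraries for 29 of 34 members in FPKM, against 25.5% of genes, and for 15 in CPM, against 21.4%.

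The fold changes of the subunits lay close together. The SD of the log2 fold change was 0.14 over the 34 tested members and 0.77 over the 9179 genes in their FPKM range. The median coefficient of variation between libraries was 7.5% in osimertinib skin and 19.4% in control skin for the members, beside 14.4% and 23.3% for those genes. The share of each subunit in the summed FPKM of its part was also compared, an addition made after the data had been seen. Psmb7 made up 4.11%, 4.15% and 4.24% of the 20S core in osimertinib skin, against 4.82%, 6.37% and 4.26% in control skin. Psma6 made up 10.6%, 9.59% and 10.5% in osimertinib skin, against 12.7%, 12.3% and 10.9% in control skin. In the 19S cap Psmd8 made up 7.71%, 6.54% and 6.59% in osimertinib skin, against 8.76%, 8.18% and 8.35% in control skin, and Psmd11 1.09%, 1.21% and 1.11%, against 1.35%, 1.29% and 1.23%. These 4 of 34 shares, 11.8%, were lower without overlap, and 0 of 34 shares were higher without overlap. The measure exists only for the members, so no share over all genes can be set beside these counts. Shares within a part are also not independent, because a rise in some lowers the others. For Psmb7 the gap between osimertinib 3 and control 3 was small.

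The immunoproteasome genes, at lower levels, had fold changes on both sides of 0. Psmb8, the counterpart of Psmb5, had 10.1, 6.02 and 11.5 FPKM in osimertinib skin, against 14.0, 6.56 and 17.8 FPKM in control skin. Psmb9, the counterpart of Psmb6, had 4.61, 3.13 and 6.15 FPKM in osimertinib skin, against 8.58, 3.85 and 9.1 FPKM in control skin. Both overlapped between groups, with log2 fold changes of -0.49 ± 0.35 and -0.66 ± 0.34. Psmb10, the counterpart of Psmb7, had 12.7, 11.8 and 15.4 FPKM in osimertinib skin, against 11.5, 8.72 and 12.2 FPKM in control skin, with a log2 fold change of 0.23 ± 0.17. None of the 3 passed the test of edgeR, with adjusted p-values of 0.598, 0.449 and 0.618. The 9 interferon-response markers, which include Psmb8 and Psmb9, held 0.0131%, 0.00927% and 0.0161% of counts in osimertinib skin, against 0.0214%, 0.0133% and 0.0334% in control skin, with 0 genes at 0 in any library. The 5 T cell markers held 0.00167%, 0.000745% and 0.00132% in osimertinib skin, against 0.00407%, 0.00113% and 0.00555% in control skin, likewise with 0 genes at 0. Control 2 had the lowest share of both lists among the controls, and also the lowest Psmb8 and Psmb9. For the interferon list part of this match is built in, because the list includes both genes. The part of these cells and signals in the values was not tested.

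The ratio of each pair within a library does not depend on library scaling. Psmb8 over Psmb5, in FPKM, was 0.0581, 0.0313 and 0.0588 in osimertinib skin, against 0.11, 0.0468 and 0.139 in control skin. Psmb9 over Psmb6 was 0.0533, 0.0348 and 0.0707 in osimertinib skin, against 0.126, 0.054 and 0.148 in control skin. Psmb10 over Psmb7 was 0.35, 0.278 and 0.387 in osimertinib skin, against 0.341, 0.196 and 0.412 in control skin. The constitutive subunit exceeded its counterpart in every library, and the groups overlapped for all 3 ratios. The differences in mean log2 ratio, osimertinib minus control, were -0.91, -0.98 and 0.15. In two-sided exact permutation tests over 3 against 3 libraries these gave p = 0.3, 0.2 and 0.8, or 0.45, 0.45 and 0.8 adjusted over the 3 ratios, where the smallest p this design allows is 0.1. The differences moved with single control libraries. Without control 2 they were -1.38, -1.43 and -0.16, and without control 3 they were -0.59, -0.70 and 0.37.

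**Figure D4:**
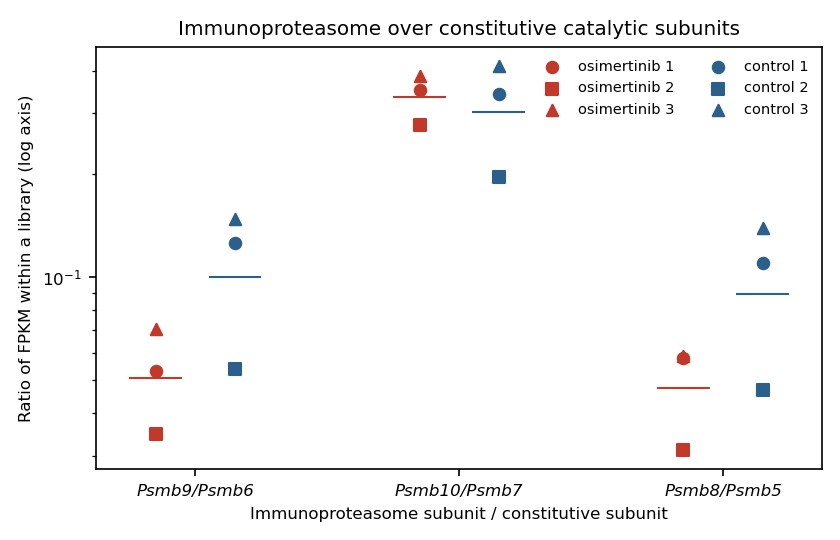
FPKM of Psmb8, Psmb9 and Psmb10 over that of Psmb5, Psmb6 and Psmb7 in each library, on a log axis, with lines at the mean of the log ratios of each group. The ratios lie below 1 in all 6 libraries, and the 3 osimertinib points overlap the 3 control points for each pair.

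The 5 dedicated assembly factors lay in the direction of the subunits, all above 0 with a median log2 fold change of 0.34. Psmg3, a chaperone of the alpha ring, had 23.8, 24.3 and 20.4 CPM in osimertinib skin, against 16.3, 18.1 and 15.9 CPM in control skin, with a log2 fold change of 0.45 ± 0.16 (adjusted p 0.324, edgeR). Psmg1, also an alpha-ring chaperone, had 23.7, 30.3 and 26.6 CPM in osimertinib skin, against 18.3, 18.0 and 22.4 CPM in control skin, with a log2 fold change of 0.45 ± 0.18 (adjusted p 0.343, edgeR). The groups of both were separate. Pomp, which brings the beta ring onto the alpha ring, had 182, 156 and 173 CPM in osimertinib skin, against 131, 154 and 118 CPM in control skin, with a log2 fold change of 0.34 ± 0.18 (adjusted p 0.452, edgeR).

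The activators, bound enzymes and ubiquitin genes had fold changes on both sides of 0, and 0 of them passed the test of edgeR. Of 5 proteasome activators and the inhibitor, 2 were above and 3 below 0, with a median log2 fold change of -0.06. Psme3, the nuclear activator, had 98.3, 115 and 89.3 CPM in osimertinib skin, against 79.0, 80.2 and 78.7 CPM in control skin, with a log2 fold change of 0.35 ± 0.16 (adjusted p 0.394, edgeR). The interferon-induced activator Psme1 had a log2 fold change of -0.23 ± 0.20 and the inhibitor Psmf1 one of -0.13 ± 0.18. Of 9 other cap subunits and bound enzymes, 6 were above 0, with a median of 0.08. Among them the cap-bound deubiquitinase Uchl5 had a log2 fold change of 0.37 ± 0.18, the arsenite-induced Zfand2a one of -0.39 ± 0.20 and the thioredoxin-like Txnl1 one of 0.25 ± 0.18. Of 15 ubiquitin and shuttle genes, 9 were above 0, with a median of 0.06. The shuttle factor Rad23b had a log2 fold change of 0.31 ± 0.18 and Ubqln4, another shuttle factor, one of 0.21 ± 0.17.

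Of 7 regulators of proteasome genes, which are the Nfe2l and NF-Y transcription factor genes and the enzyme gene Ngly1, 3 were above 0, with a median log2 fold change of -0.01. Nfe2l1 itself had a log2 fold change of 0.03 ± 0.36. Its relative Nfe2l3 had 13.6, 35.9 and 14.4 CPM in osimertinib skin, against 5.11, 5.88 and 8.04 CPM in control skin. All 3 osimertinib libraries were above the controls, and osimertinib 2 stood far above the others. Its log2 fold change was 1.75 ± 0.45 in edgeR, with an adjusted p of 0.246, and it passed the threshold with DESeq2, with an adjusted p of 0.00946. Without osimertinib 2 the log2 fold change in edgeR was 1.14. Of the pathway genes listed here it was the only one called by either tool. Ngly1, the enzyme that processes Nfe2l1, had a log2 fold change of -0.33 ± 0.23, and Nfyb, a subunit of NF-Y, one of 0.11 ± 0.17. The muscle ubiquitin ligases Fbxo32, Trim63 and Fbxo30 had log2 fold changes of -0.44 ± 0.49, -0.36 ± 1.42 and -0.12 ± 0.26. Trim63 ran with the muscle share, with 257 CPM in control 2 and 1.03 CPM in control 3.

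**Figure D5:**
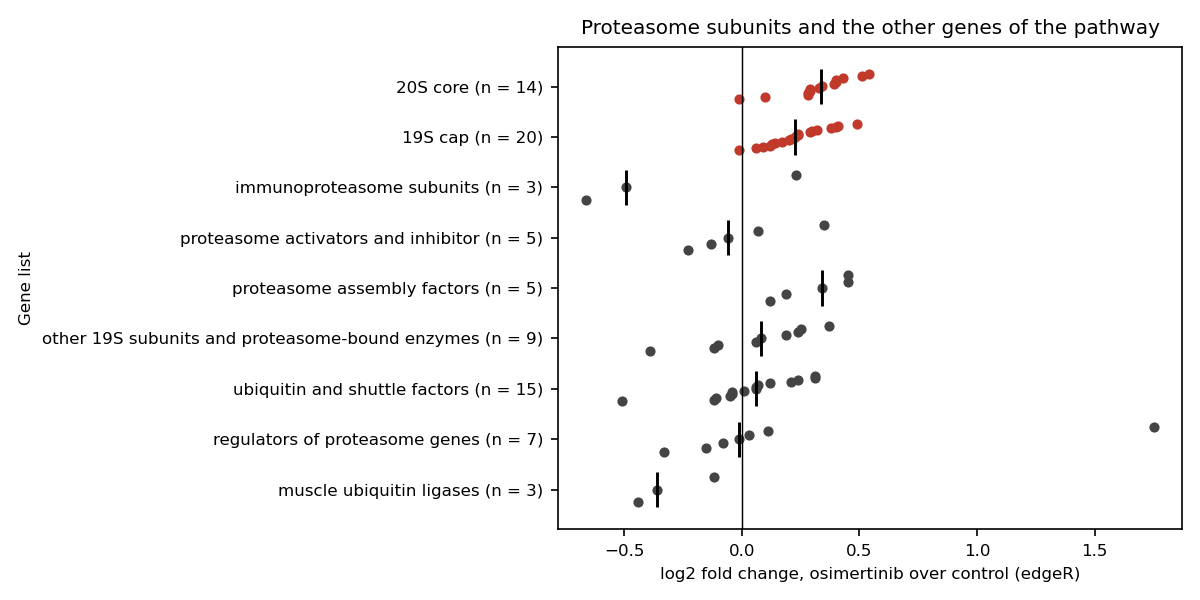
Log2 fold changes of osimertinib over control (edgeR) of the tested genes in each list (points), with each list's median (vertical bars). The medians run from 0.33 for the 20S core and 0.34 for the assembly factors to -0.36 for the muscle ligases and -0.49 for the 3 immunoproteasome subunits, and Nfe2l3 lies farthest right at 1.75.

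Other large complexes gave a scale for these values. Over all genes tested, 11.5% were higher without overlap in FPKM and 11.3% in CPM, and 9.38% were lower without overlap in CPM. Of 78 cytosolic ribosomal protein genes, 70 were above 0, with a median log2 fold change of 0.16, and 3 were higher without overlap in FPKM and 4 in CPM. Of 36 subunits of the mitochondrial NADH dehydrogenase, 18 were above 0, with a median of 0.00, and 0 were higher without overlap on either scale. Of 8 subunits of the chaperonin TRiC, which folds actin and tubulin, 7 were above 0, with a median of 0.37, and 4 were higher without overlap in FPKM and 7 in CPM, where 1 was lower without overlap. A median near that of the proteasome was therefore also found for TRiC, and differences between the complexes were not tested.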

How the data were processed

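Polyadenylated RNA of mouse skin was sequenced in pairs on an Illumina NovaSeq from dUTP-marked libraries with molecular identifiers, per the labels' protocols. The submitters' processing notes name cutadapt 1.9 and build GRCm38. Aligner, counter, annotation, strand setting and any use of the identifiers: not given in the sources used here. The deposited columns are headed count, holding whole numbers, and FPKM. Whether a count is a read, a fragment or an estimate is not stated, and the values were treated as counts. A further 6 value columns match no sample and were not used. Groups came from the sample titles. Since the labels do not speak of separate animals, p-values cover only the spread among these libraries, which may not be a spread between animals. Libraries of a group differed beyond counting error, with a chi-square per degree of freedom of 146 to 1520 between pairs. Of the members, 15 overlap another gene, 11 of them on the opposite strand, and without a stated strand setting such reads cannot be told apart. Psma2, at a mean of 26.4 FPKM, overlaps AW209491 at 2.68 FPKM on the same strand.

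All genes averaging 1 FPKM or more, 13498 in number, entered the quasi-likelihood test of edgeR 4.0.16 (R 4.3.3, TMM, two-sided, no covariate), with Benjamini-Hochberg adjustment over all of them and a threshold of 0.05. The procedure was also run on simulated data, with the outcome not given here. A standard error is the log2 fold change over the square root of F. CPM are counts scaled by TMM-corrected library totals. Alternatives were DESeq2 1.42.0, limma 3.58.1 on log2 FPKM with a pseudocount of 1 or 0.1, other scalings and filters, a replicate block, a muscle score covariate and each library left out. The members and all gene lists were chosen with earlier results of these data known, so no p over a list is given. Genes named are the catalytic and tissue-restricted subunits, and in each of 4 roles the 2 with the smallest p and the member with the highest mean FPKM. Outside the members they are the immunoproteasome genes and the 3 with the smallest p of each pathway list. 1 gene that this takes is not reported here. Psmd1, Psmd5, Psmd6, Psmd8, Psmd11 and Nfe2l1 were added after values were seen. Ratios were compared by exact permutation tests. Promoters were searched in the 250 bases before the start.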

Additional observations from a re-analysis of the deposited data

How the results depend on the processing

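No member was called under any alternative run, and the median log2 fold change of both parts was positive under each. With 1 library left out, it ran from 0.25 to 0.49 for the 20S core and from 0.10 to 0.49 for the 19S cap. The log2 ratio of summed levels was 0.44 for the core in FPKM, 0.33 in TMM-scaled CPM and 0.34 in FPKM rescaled to a common sum, and 0.38 for the cap in FPKM and 0.25 in TMM-scaled CPM. Members higher without overlap numbered 13 of the core and 10 of the cap in FPKM, and 8 and 6 in TMM-scaled CPM. Leaving out a library can only keep or raise this count. In FPKM it was then 13 to 14 for the core, highest without control 2, and 10 to 16 for the cap, highest without osimertinib 1, where the share of all genes was 13.2% to 24.3%. The log2 ratio of Psmb10 over Psmb7 differed by 0.15, and by -0.16 to 0.37 with 1 library left out, the lowest without control 2. Over all genes tested, 0 were called by edgeR, 858 by DESeq2 and 17 by limma with a pseudocount of 1, and their median log2 fold change was 0.10 by limma with a pseudocount of 0.1, against -0.05. Correlations of deviations from the group means were 0.222, 0.0294 and -0.115 for equal replicate numbers. For unequal numbers they ran from -0.284 to 0.111. With so few libraries these values cannot exclude a pairing. With a replicate block the medians were 0.34 and 0.25, with 0 members called and a lowest adjusted p of 0.463 in edgeR. The causes were not tested.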
